A study of Mus musculus with 16 samples.

Results

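Within the T9 plates of a tenogenic induction series, single cells differ widely in *Acta2*, which encodes smooth muscle alpha-actin. The cells described here are the Acta2-high and the Acta2-low cells of those plates. They were chosen by measured values: wells with at least 200 detected genes and at least 3000 UMIs (unique molecular identifiers, each a counted transcript) were ranked within their plate by *Acta2* UMIs per 10000 UMIs of the cell, and each plate was cut into 3 equal classes. Of the 1152 wells sorted at T9, 1147 had at least 200 genes, and 1111 also reached 3000 UMIs. The Acta2-high class holds 370 of these cells (125, 124 and 121 in plates 1, 2 and 3), the Acta2-low class 370 (125, 124 and 121), and the middle class 371. The whole series has 4608 wells, of which 4301 met the same limits. UMIs were then summed per plate and class, and the classes were compared within the 3 plates with *Acta2* itself left out.

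The cells were mouse cells derived from induced pluripotent stem cells (iPSCs) that were made from embryonic fibroblasts carrying ScxGFP, a transgene that reports the tendon transcription factor gene *Scx* with green fluorescence. Mesodermal cells (T0) were induced with CHIR, a Wnt agonist, and cyclopamine, a Hedgehog inhibitor, in a medium based on DF (DMEM-F12). They then received recombinant human TGF-β2 at 10 ng/ml in DF medium with 1% FBS and ITS. T3, T6 and T9 name the days of this treatment, so Acta2-high and Acta2-low cells share the same 9 days of TGF-β2 and the same plates. Of several iPSC clones established, the study's text takes a single clone, ScxGFP iPSC-20, into its later analyses. Live single cells were sorted by a nuclear and a dead-cell stain, with no gate on GFP, into 3 plates of 384 wells per time point, and the T6 plates were classed by the same rule. No source says that the plates came from separate cultures. The p-values measure only how far the difference between the classes varies from plate to plate, and that variation may be technical.

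As background, smooth muscle alpha-actin is incorporated into contractile stress fibres of smooth muscle cells, pericytes, and myofibroblasts, and TGF-β is a known inducer of it in fibroblasts. *Acta2* and many genes of the contractile apparatus are classic targets of serum response factor, which binds a short element called the CArG box together with myocardin-related cofactors that are held in the cytoplasm by monomeric actin. *Tagln* (transgelin), *Cnn1* (calponin 1), and *Myl9* (a myosin regulatory light chain) are genes of this class. Tenocytes, the fibroblasts of tendon, are marked by *Scx* and, on maturation, by *Tnmd* (tenomodulin), a membrane glycoprotein.

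The 6 compared sums held 845024 to 1291445 UMIs each. Acta2-high cells were somewhat deeper, with medians of 9700, 8064 and 8999 UMIs per cell in plates 1, 2 and 3 against 8788, 7057 and 6410 in Acta2-low cells, so shares of cells are also given at equal depth. Median mitochondrial shares were 24.6%, 27.2% and 9.19% in Acta2-high and 24.8%, 27.2% and 8.78% in Acta2-low cells, so that plate 3 stood apart from the other plates but the classes within a plate did not. The 3 plates carry the same 384 cell barcodes by design. A few T9 cells, 36 in all, held 10 or more UMIs of pluripotent, epithelial, or endodermal genes (8 pluripotent and 7 epithelial genes and *Srgn*, *Sox7*, *Sox17*, *Gata4*, *Gata6* and *Lama1*), a limit set after the data were seen. Of these, 28 were Acta2-low, 6 middle and 2 Acta2-high, and results that rest on them are given with and without them.

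*Acta2* (chromosome 19, 34241090 to 34255590, minus strand, GRCm38) formed a continuous range in every plate rather than separate levels. Among Acta2-high cells the median was 44.9, 34.9 and 47.5 *Acta2* UMIs per 10000 in plates 1, 2 and 3, against 9.07, 6.20 and 7.45 in the middle class and 2.69, 1.39 and 1.72 in Acta2-low cells. The highest cells reached 232, 202 and 239.8 per 10000. No *Acta2* UMI was counted in 10, 41 and 38 Acta2-low cells. The upper limit fell between near neighbours, since the lowest Acta2-high cell had 21.2, 13.7 and 18.8 per 10000 and the highest middle cell 21.1, 13.6 and 18.1. At the lower limit the highest Acta2-low cell had 4.87, 2.94 and 3.48, and the lowest middle cell 4.94, 2.95 and 3.51. Acta2-high cells held 82.5%, 85.2% and 88.6% of the plates' *Acta2* UMIs. These values chose the members and are not a result.

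**Figure D1:**
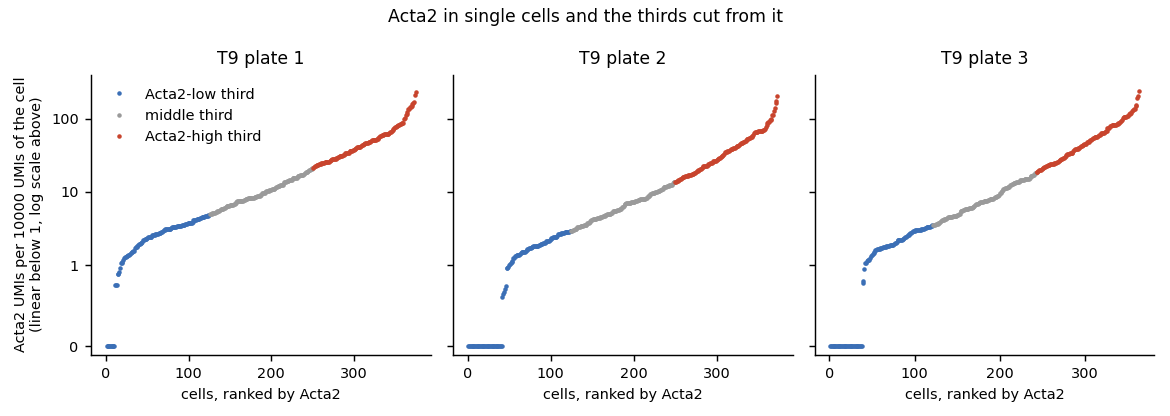
Each point is a T9 cell, with cells of a plate ranked from left to right and *Acta2* UMIs per 10000 UMIs of the cell on the vertical axis, linear below 1 and logarithmic above. Colours mark the 3 classes, and the curve passes their limits without a step (21.2 against 21.1 per 10000 at the upper limit of plate 1).

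Across 8876 genes tested, 171 were higher in Acta2-high cells (1.93% of genes tested) and 97 were lower (1.09%), by edgeR's quasi-likelihood test with the plate as a block and Benjamini-Hochberg adjusted p below 0.05. The median log2 fold change of all genes tested was -0.01, and 15.3% of them were higher in all 3 plates and 20.2% lower in all 3. Of the 10 largest changes upward among called genes with a mean of at least 20 CPM, 7 were of genes of the contractile apparatus and the actin cytoskeleton. Levels are UMIs per 1000000 UMIs of the same cells (CPM), given in the order of plates 1, 2 and 3. Leaving out plate 1 gave 112 higher and 70 lower genes, and leaving out plate 3 gave 261 and 263. DESeq2 called 93 and 50.

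Of 17 smooth muscle contractile genes, 13 passed the filter on low counts. Of those, 12 were higher and none was lower, with a median log2 fold change of 2.69. *Cnn1*, *Actg2*, *Myh11* and *Lmod1*, scarce in Acta2-low cells, passed the filter only through the Acta2-high class. Their direction was therefore fixed by passing, and they add no support to this count or median. *Tagln*, an actin-binding protein (chromosome 9, 45929619 to 45936058, minus strand), had 130.4, 105 and 98.2 CPM in Acta2-low cells and 855, 977 and 1113 CPM in Acta2-high cells. The lowest Acta2-high plate lay far above the highest Acta2-low plate, and the plates of the classes did not overlap (log2 fold change 3.16, SE 0.14, adjusted p = 7.97e-10). *Myl9* (chromosome 2, 156775420 to 156781658, plus strand) had 77.4, 68.7 and 76.9 CPM against 529, 465 and 556 CPM (log2 fold change 2.83, SE 0.13, adjusted p = 7.97e-10). *Mylk*, the kinase that phosphorylates this light chain, went from 32.0, 10.1 and 43.8 CPM to 160.4, 113 and 267 CPM (log2 fold change 2.69, SE 0.21, adjusted p = 9.05e-07). For *Myl9* and *Mylk* too, the plates of the classes did not overlap.

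Genes of the mature contractile state were scarce in Acta2-low cells. *Cnn1*, calponin 1 (chromosome 9, 22099216 to 22109630, plus strand), had 2.52, 2.02 and 2.37 CPM in Acta2-low cells, from 7 UMIs in all, and 65.4, 54.5 and 94.4 CPM in Acta2-high cells, from 252 UMIs (log2 fold change 4.88, SE 0.35, adjusted p = 3.05e-07). *Actg2*, enteric smooth muscle gamma-actin, had 2.52, 0 and 3.55 CPM against 52.2, 50.7 and 82.5 CPM (log2 fold change 4.88, SE 0.42, adjusted p = 2.67e-06), and reads of actin genes may be shared among their near-identical copies. *Myh11*, the smooth muscle myosin heavy chain, had 2.52, 0 and 1.18 CPM, from 4 UMIs, against 31.9, 24.9 and 63.8 CPM (log2 fold change 4.78, SE 0.51, adjusted p = 2.62e-05). In each of these 3 genes the 3 Acta2-high plates lay above the 3 Acta2-low plates. *Lmod1*, leiomodin 1, an actin nucleator of smooth muscle, had 3.36, 2.02 and 4.73 CPM against 21.03, 15.3 and 48.5 CPM (log2 fold change 2.99, SE 0.43, adjusted p = 0.000488). For these 4 genes the low-class level rests on at most 10 UMIs, which limits the precision of the fold change.

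The broadly expressed members moved less. *Tpm1* and *Tpm2*, tropomyosins that lie along the actin filament, had log2 fold changes of 1.44 and 1.47, and *Cald1* (caldesmon) of 1.20. *Smtn* (smoothelin) and *Des* (desmin, an intermediate filament protein of muscle) followed with 0.94 and 1.18, each higher in 3 of 3 plates. *Hspb6* did not pass the test (0.70, SE 0.28, adjusted p = 0.257). *Des* was not called without the 36 cells that held other lineage transcripts (0.68, adjusted p = 0.164), while 11 of 14 members tested were called there. *Myocd*, *Kcnmb1*, *Synpo2*, and *Ppp1r12b* did not pass the filter on low counts.

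**Figure D2:**
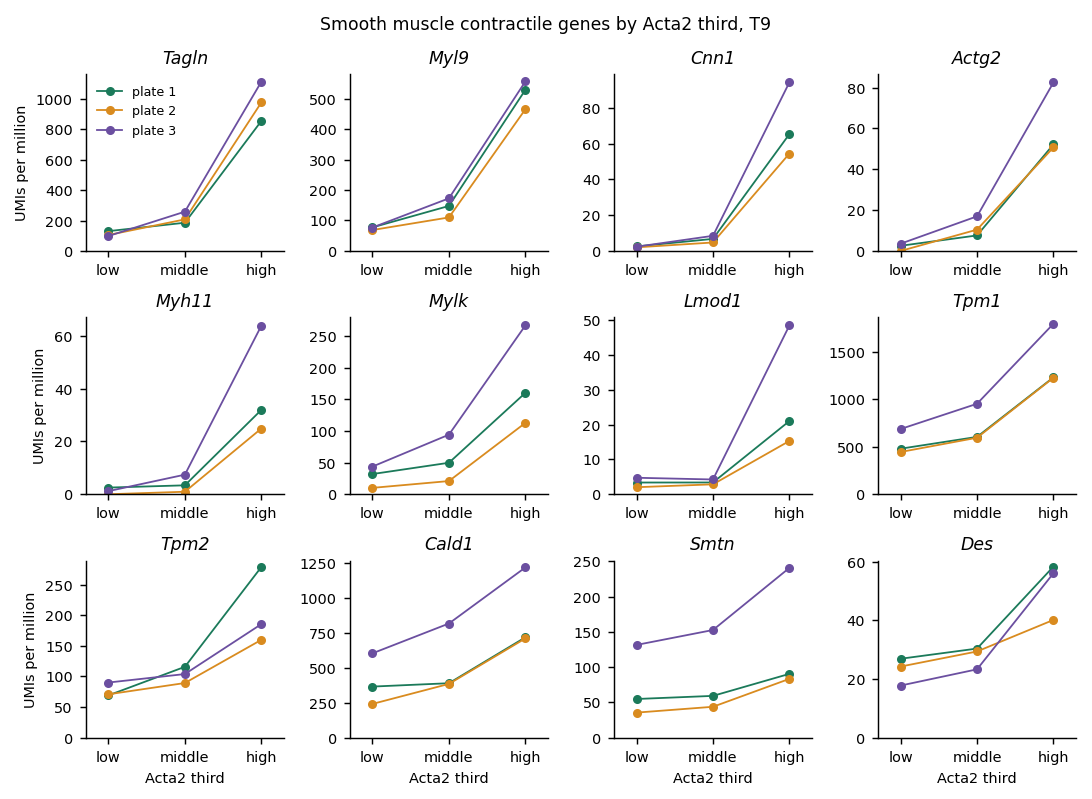
Each panel gives a smooth muscle contractile gene in UMIs per 1000000 UMIs, on a linear axis from 0, for Acta2-low, middle and Acta2-high cells, with a line for each T9 plate. All 12 genes are highest in Acta2-high cells in the 3 plates, as for *Tagln* with 855 to 1113 CPM against 98.2 to 130.4 CPM.

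The mature contractile genes were counted in only part of the Acta2-high cells. At least 1 UMI of *Cnn1*, *Actg2*, *Myh11* or *Lmod1* was found in 155 of 370 Acta2-high cells (41.9%), 52 of 371 middle cells (14.0%) and 20 of 370 Acta2-low cells (5.41%). By plate the shares of Acta2-high cells were 43.2%, 34.7% and 47.9%. At an equal depth of 3000 UMIs drawn from each cell these shares became 22.4%, 5.39% and 2.70%. The 36 cells with other lineage transcripts gave 19.4% (7 cells) at a median of 14790 UMIs and 2.78% (1 cell) at the equal depth, and 28 of them are themselves Acta2-low. At least 2 of these genes were counted in 55 Acta2-high, 7 middle and 0 Acta2-low cells, and 0 of 370, pooled over plates, allows up to 0.811% of cells with such UMIs, for counting error only, which is no limit on cells that express these genes. *Tagln* was counted in 329 Acta2-high (88.9%) and 160 Acta2-low cells (43.2%), and in 33.3% of the 36 cells.

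All 30 genes of the actin cytoskeleton and focal adhesion list were tested, and 18 were higher and none lower, with a median log2 fold change of 0.89. *Actb*, the main cytoplasmic actin, had 1062, 1275 and 1449.9 CPM in Acta2-low cells and 2345, 2512 and 3190.4 CPM in Acta2-high cells (log2 fold change 1.12, SE 0.08, adjusted p = 3.05e-07). *Cnn2*, the calponin of non-muscle cells, had 116, 109 and 127 CPM against 435, 386 and 618 CPM (log2 fold change 2.04, SE 0.13, adjusted p = 7.36e-08), with no overlap between classes. *Flna* (filamin A, an actin crosslinker) had 53.8, 39.4 and 109 CPM against 128, 97.6 and 434 CPM (log2 fold change 1.60, SE 0.17, adjusted p = 3.16e-05), and plate 3 was higher than the other plates in both classes, so that the levels overlapped across plates but not within a plate. *Csrp1*, a LIM protein of actin bundles, had 15.1, 27.3 and 9.47 CPM against 78.7, 88.0 and 45.9 CPM (log2 fold change 2.104, SE 0.24, adjusted p = 5e-05).

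The other called members ranged from 0.62 to 1.31. They include the focal adhesion proteins *Tln1* (talin, 0.83), *Zyx* (zyxin, 0.88), *Tes* (0.74), *Pdlim7* (0.93) and *Tgfb1i1* (Hic-5, 1.31), the crosslinker *Actn1* (0.74), non-muscle myosin *Myh9* (1.01) and *Myl6* (1.22), and tropomyosin *Tpm4* (1.04). The actin-turnover genes *Cfl1* (cofilin, 0.67) and *Pfn1* (profilin, 0.91) and the LIM protein genes *Fhl1* (1.07), *Fhl2* (1.23) and *Csrp2* (0.62) were also higher. *Fhl1* had 60.8% of its Acta2-low UMIs in the 28 cells with other lineage transcripts and stood at 1.97 without them. *Srf* itself had a log2 fold change of 0.34 (SE 0.27, adjusted p = 0.634) and *Vcl* (vinculin) of 1.15 (SE 0.36, adjusted p = 0.114). *Tes*, *Pfn1*, *Fhl1*, *Actn1*, *Zyx* and *Csrp2* each lost the call when a plate was left out (*Tes* and *Pfn1* without plate 2, *Fhl1* and *Actn1* without plate 3, *Zyx* and *Csrp2* without plate 1). After thinning to 3000 UMIs per cell, with classes cut anew from the thinned *Acta2* counts, *Zyx* (0.38, adjusted p = 0.602), *Tln1* (0.68, adjusted p = 0.0811), *Tes* and *Csrp2* were not called. Depth, changes of class and lower power cannot be told apart in that setting.

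Promoter sequences (250 bases before to 50 after the start site, from RefSeq on GRCm38.p6) were searched for the CArG box, whose pattern reads the same on both strands. The box was present in 1.63% of all 32851 promoters and, counted per gene, in 111 of 6824 tested genes that have an entry (1.63%). Of the 171 higher genes 132 have an entry and 13 of them hold the box (9.85%), against 1 of 71 lower genes (1.41%). In the actin cytoskeleton list it was found for 4 of 15 higher members with an entry, and in the contractile list for 1 of 9. *Tagln*, *Actg2*, *Myh11*, *Actb* and *Tgfb1i1* have no entry. The windows below are shown because these 5 genes of the contractile and actin lists carry the box, which is in capitals with 20 bases on each side, 5′ to 3′ in the direction of the gene. The first base of the box lies 161 bases before the start site for *Myl9*, 56 for *Cnn2*, 50 for *Myl6*, 102 for *Fhl1*, and 96 and 31 for 2 start sites of *Fhl2*. A match describes these letters and is not evidence of binding.
Myl9 (chr2:156775283-156775332, plus strand): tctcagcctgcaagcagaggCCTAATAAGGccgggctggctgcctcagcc
Cnn2 (chr10:79988524-79988573, plus strand): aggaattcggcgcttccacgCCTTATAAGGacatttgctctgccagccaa
Myl6 (chr10:128493030-128493079, minus strand): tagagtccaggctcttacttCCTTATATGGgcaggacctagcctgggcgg
Fhl1 (chrX:56779561-56779610, plus strand): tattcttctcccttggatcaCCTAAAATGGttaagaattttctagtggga
Fhl2 (chr1:43196828-43196877, minus strand): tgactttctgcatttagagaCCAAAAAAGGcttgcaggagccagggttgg
Fhl2 (chr1:43163963-43164012, minus strand): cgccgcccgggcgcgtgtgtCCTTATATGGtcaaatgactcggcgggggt

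*Mylk*, *Smtn*, *Lmod1*, *Cald1* and *Tpm1* hold no CArG box in this window, and each holds CATTCC or its complement GGAATG, the core letters bound by TEAD factors. That makes 5 of 9 higher contractile genes with an entry, while 14.0% of tested genes hold these letters, as do 2 of 15 higher actin cytoskeleton genes (13.3%), 17.4% of all higher genes and 14.1% of lower genes.

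Among genes that respond to TGF-β or to YAP, a mechanosensitive coactivator, 3 of 19 tested were higher and none lower (median log2 fold change 0.27). *Thbs1* (thrombospondin 1, a matricellular protein that activates latent TGF-β) had 267, 229 and 385 CPM in Acta2-low and 565, 509 and 1284 CPM in Acta2-high cells (log2 fold change 1.37, SE 0.12, adjusted p = 4.4e-06). *Inhba*, the activin A subunit, had 7.57, 7.07 and 39.1 CPM against 23.4, 24.9 and 118 CPM (log2 fold change 1.67, SE 0.27, adjusted p = 0.00119). The classes did not overlap for *Thbs1*, and for *Inhba* they did not overlap within a plate. *Inhba* was not called after thinning to 3000 UMIs with classes cut anew (1.10, adjusted p = 0.162). *Amotl2*, a YAP target, had a log2 fold change of 0.62 (adjusted p = 0.0423), which was not called without plate 3. *Ccn1* (0.33, SE 0.09) and *Ccn2* (0.27, SE 0.13) did not pass the test, and *Tgfb2*, the ligand of the family that was also added to the medium, was at 0.29 (SE 0.20). Without the 36 cells, *Ccn2* was higher (0.70, adjusted p = 2.18e-06), while *Tgfbi* and *Id1* were lower, both at -0.44.

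Few tendon genes differed between the classes when all T9 cells were used. Of 13 tested, 1 was higher and 1 lower, with a median log2 fold change of 0.09. Without the 36 cells that held other lineage transcripts, 1 was higher and 5 were lower (median -0.16). *Scx* had 169, 88.9 and 162 CPM in Acta2-low, 257, 153 and 177 CPM in middle, and 205, 108 and 151 CPM in Acta2-high cells, so that the classes overlapped (log2 fold change 0.18, SE 0.15, adjusted p = 0.654). *Scx* lies within the span of *Bop1*, on the other strand. *Tnmd* had 97.6, 65.7 and 46.2 CPM, 198, 147 and 87.9 CPM, and 146, 88.0 and 79.1 CPM in the same order (log2 fold change 0.62, SE 0.17, adjusted p = 0.0586). It was higher in Acta2-high than Acta2-low cells in 3 of 3 plates and missed the threshold, with 37 Acta2-low and 55 Acta2-high cells holding a UMI up to 59 UMIs in a single cell, and 8.33% of the 36 cells holding a UMI. Both *Scx* and *Tnmd* were highest in the middle class in all 3 plates, which held for 3.67% of genes tested. *Mkx*, another transcription factor of tendon, was at -0.01 (SE 0.26).

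*Tnc*, tenascin C, was the tendon list member that was higher, with 110.2, 105 and 207 CPM in Acta2-low, 268, 233 and 389.8 CPM in middle, and 280.4, 254 and 771 CPM in Acta2-high cells (log2 fold change 1.56, SE 0.14, adjusted p = 2.96e-06). In plates 1 and 2 the middle class was near the Acta2-high class, and in plate 3 the level was highest in Acta2-high cells. *Col14a1*, a collagen that binds along fibrils, was lower, with 185, 106 and 387 CPM against 94.2, 80.4 and 223 CPM (log2 fold change -0.72, SE 0.15, adjusted p = 0.0115), lower within each plate though overlapping across plates, and lost the call without plate 1 (adjusted p = 0.185).

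Fibrillar collagen levels were close in the classes. *Col1a1* had 7809.8, 5404 and 19777 CPM against 8258, 5681 and 21601 CPM (log2 fold change 0.13, SE 0.07, adjusted p = 0.422), and *Col1a2*, *Col3a1* and *Sparc* had log2 fold changes of 0.09, -0.02 and 0.03, each with an SE of 0.07. The spread between plates was far larger, since plate 3 stood far above plates 1 and 2 in both classes. Of 28 collagen and matrix genes tested, 6 were higher and 1 lower (median log2 fold change 0.13). *Eln*, elastin, was lower, with 1097, 732 and 2264 CPM in Acta2-low and 631, 544 and 1434 CPM in Acta2-high cells (log2 fold change -0.60, SE 0.10, adjusted p = 0.00195), though not called without plate 1 (adjusted p = 0.0806). *Col8a1*, a short-chain collagen of vessel walls, was higher at 1.94 (SE 0.40). *Lox*, which crosslinks collagen and elastin, *Postn* (periostin), *Col12a1*, *Fbn1* (fibrillin 1) and *Fbln5* were higher by 0.48, 0.43, 0.45, 0.54 and 0.51. *Postn* lost the call without plate 1 (adjusted p = 0.0760). The last 3 had adjusted p-values of 0.0486, 0.0486 and 0.0394, and each lost the call without plate 1 and without plate 3, as *Fbn1* also did without plate 2 (adjusted p = 0.0633). *Lox*, *Col12a1*, *Fbn1* and *Fbln5* were not called after thinning to 3000 UMIs with classes cut anew.

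**Figure D3:**
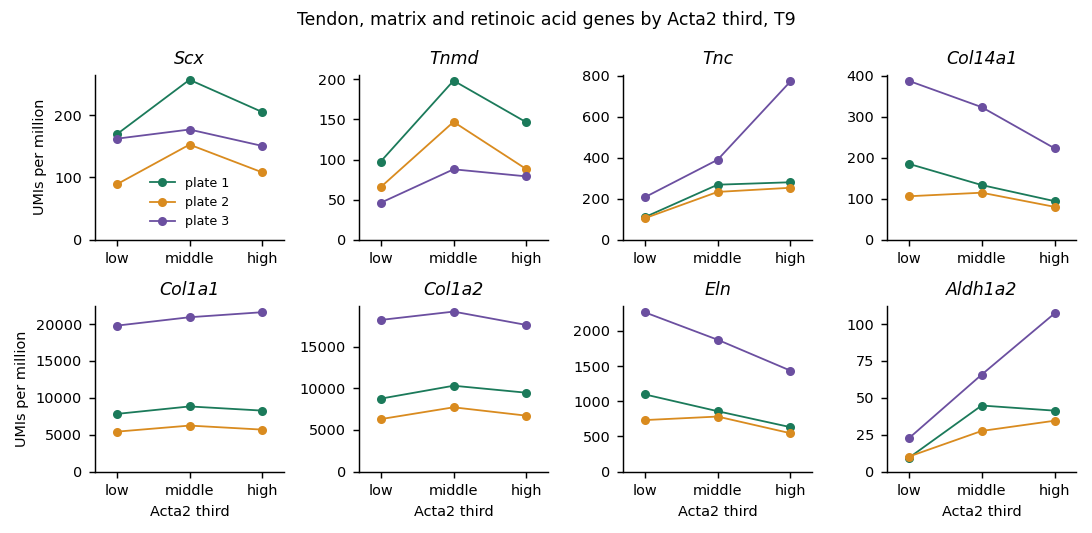
Each panel gives a tendon, matrix, or retinoic acid gene in UMIs per 1000000 UMIs, on a linear axis from 0, for Acta2-low, middle and Acta2-high cells, with a line for each T9 plate. Of the classes, the middle is highest for *Scx* and *Tnmd* in the 3 plates, though finer steps of *Acta2* do not all peak there. *Eln* is lowest in Acta2-high cells (544 to 1434 CPM), and the plates differ more than the classes for *Col1a1* and *Col1a2*.

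Without the 36 cells that held other lineage transcripts, and with classes cut again from the rest, 271 genes were higher (3.16% of 8565 tested) and 169 lower (1.97%). In that comparison 3 collagen and matrix genes were higher (*Col8a1*, *Lox* and *Loxl2*) and 9 lower. *Postn*, *Col12a1*, *Fbn1* and *Fbln5* were no longer called (0.20, 0.24, 0.37 and 0.28). The lower genes include *Eln* (-0.84), *Mfap4* (-0.49), *Col6a3* (-0.43), *Bgn* (-0.32) and *Col3a1* (-0.25), with *Col1a2* at -0.16 (adjusted p = 0.0209). Of 13 tendon genes 1 was higher (*Tnc*) and 5 lower. The lower ones were *Col14a1* (-0.93), *Kera* (keratocan, -1.01), *Dcn* (decorin, -0.47), *Egr1* (-0.45) and *Col1a2*, which both lists hold. *Scx* stayed uncalled (-0.04, adjusted p = 0.931).

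*Aldh1a2*, which makes retinoic acid from retinal, was higher in Acta2-high cells, with 9.25, 10.1 and 22.5 CPM in Acta2-low, 44.7, 27.5 and 65.7 CPM in middle, and 41.3, 34.4 and 107 CPM in Acta2-high cells (log2 fold change 2.12, SE 0.26, adjusted p = 0.000112). The middle class was close to the Acta2-high class in plates 1 and 2. *Aldh1a2* was counted in 76 of 370 Acta2-high and 25 of 370 Acta2-low cells (20.5% and 6.76%), and in 3 of the 36 cells (8.33%), whose depth was greater. After thinning to 3000 UMIs before the classes were made, the difference was not called (1.16, adjusted p = 0.0835). Of 11 retinoic acid genes tested, *Crabp1*, a cytoplasmic retinoic acid binding protein, was the other member called (0.73, adjusted p = 0.0383), and it was not called without plate 1.

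In the pericyte and vascular mural list 2 of 7 tested genes were higher and none lower. Both encode regulators of G-protein signalling, and both were scarce in Acta2-low cells, so they passed the filter through the Acta2-high class. *Rgs4* had 5.89, 2.02 and 10.7 CPM against 36.6, 40.2 and 77.4 CPM (log2 fold change 3.07, SE 0.34, adjusted p = 3.81e-05) and *Rgs5*, a pericyte marker, 7.57, 1.01 and 5.92 CPM against 28.8, 33.5 and 29.8 CPM (log2 fold change 2.66, SE 0.45, adjusted p = 0.00195). These are few cells, since *Rgs5* was counted in 31 Acta2-high and 9 Acta2-low cells. The summed level of the whole list was 912 to 1157 CPM in Acta2-high and 805 to 1025 CPM in Acta2-low cells. In the T6 plates 0 of 6 tested genes of the list were higher and 1 was lower. *Igf1*, a growth factor, was the 1 fibroblast list gene called of 10 tested (0.87, SE 0.11), with 386, 290.0 and 405 CPM against 598, 562 and 775 CPM. *Prss23*, a serine protease with a large change, had 93.4, 41.4 and 91.1 CPM against 297, 262 and 470.4 CPM (log2 fold change 2.21, SE 0.17, adjusted p = 9.97e-07).

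Of the striated muscle list, 2 genes were tested and both were called. *Actc1*, cardiac alpha-actin, was at 11.8, 0 and 18.9 CPM in Acta2-low and 190.0, 0 and 189.7 CPM in Acta2-high cells. Most of its UMIs came from 2 cells, since 227 of 244 Acta2-high UMIs in plate 1 and 212 of 223 in plate 3 came from a single cell each and plate 2 had none. *Tnnt1*, slow skeletal troponin T, was at 17.7, 13.1 and 24.9 CPM against 59.2, 35.4 and 51.9 CPM (log2 fold change 1.44, SE 0.26, adjusted p = 0.00351), with 49 UMIs in a single Acta2-high cell, and it was not called without plate 1 (adjusted p = 0.0509) or without the 36 cells.

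Further genes were higher that no list held, and they were chosen for naming after their values were seen. *Cav1*, *Cavin1* and *Cavin3*, which build the membrane pits called caveolae, had log2 fold changes of 1.67, 0.91 and 0.88. *Tmsb4x*, thymosin beta-4, which binds monomeric actin, had 977, 788 and 556 CPM in Acta2-low and 2355, 2027 and 1467 CPM in Acta2-high cells (log2 fold change 1.38, SE 0.09, adjusted p = 8.07e-08). The integrin subunit genes *Itga1* and *Itgb3* were at 1.46 and 1.42, the tubulin genes *Tuba1a* and *Tubb6* at 1.17 and 1.21, and *Palld* (palladin) and *Nexn* (nexilin), both actin-associated, at 0.77 and 1.40. *Cdkn2b*, a cell cycle inhibitor known to respond to TGF-β, was at 1.66 (SE 0.22), with 70.7, 27.3 and 35.5 CPM against 146, 121 and 142 CPM. *Itgb3* was not called without plate 1 or without plate 3.

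*Msmo1*, *Hmgcs1*, *Cyp51* and *Pmvk*, enzymes of cholesterol synthesis, were also higher (1.13, 0.79, 0.81 and 1.09), named after their values were seen. Of 20 tested genes of that pathway and its regulation, from a list written after those values were seen, these 4 were the ones called and none was lower (median log2 fold change 0.83). *Hmgcs1* lost the call without plate 1, *Cyp51* without plate 1 or 3, and *Pmvk* whichever plate was left out. Without the 36 cells 11 of 20 were higher and none lower (median 0.97). In the T6 plates 8 of 20 were higher and none lower.

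The largest changes downward rested on few cells. *Srgn* (serglycin) had 367, 491 and 127 CPM in Acta2-low and 13.2, 12.4 and 2.55 CPM in Acta2-high cells (log2 fold change -5.05, SE 0.20, adjusted p = 3.99e-10), and 97.8% of its Acta2-low UMIs lay in the 28 cells with other lineage transcripts, which *Srgn* helped to choose. *Podxl*, *Sall4*, *Cldn6*, *Sox17*, *Hs3st1*, *Gata4*, *Foxq1*, *Rhox5* and *Lama1* completed the 10 largest. *Podxl*, *Hs3st1*, *Foxq1* and *Rhox5*, which had no part in choosing those 28 cells, had 97.5%, 96.0%, 85.6% and 92.9% of their Acta2-low UMIs in them. *Sall4* had no part in that choice either, and its share is not given here. *Sox17* and *Gata4* are transcription factors of endoderm, *Lama1* encodes a laminin chain of early basement membranes, *Sall4* is a transcription factor of pluripotent and germ cells, and *Cldn6* is a tight junction protein of embryonic epithelium. *Podxl* was counted in 118 UMIs of Acta2-low and 2 UMIs of Acta2-high cells.

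Of 13 parietal endoderm genes tested 9 were lower and none higher (median log2 fold change -1.19). The study describes a cluster with *Srgn*, *Tfpi* and basement membrane genes as apparently endothelial. Whether that cluster holds the cells described here was not tested. The basement membrane genes *Col4a1*, *Col4a2*, *Lamb1* and *Lamc1* were lower by moderate amounts (-1.31, -1.06, -0.82 and -1.19), with 49.1% to 68.4% of their Acta2-low UMIs in the 28 cells. The summed level of the list was 2173 to 2282 CPM in Acta2-low, 729 to 1284 CPM in middle and 647 to 1318 CPM in Acta2-high cells. *Sox2*, the 1 pluripotent gene tested, was lower (-3.69), with 106, 157 and 0 CPM in Acta2-low and 10.9, 7.65 and 0 CPM in Acta2-high cells, as were the epithelial genes *Krt18* (-2.19) and *Cldn6* (-4.77). Without the 36 cells 0 of 11 tested endoderm genes were called (median -0.01), which follows in part from how those cells were chosen. Of the 171 higher calls 154 were also called without them, and of the 97 lower calls 35 were, with 26 no longer tested.

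**Figure D4:**
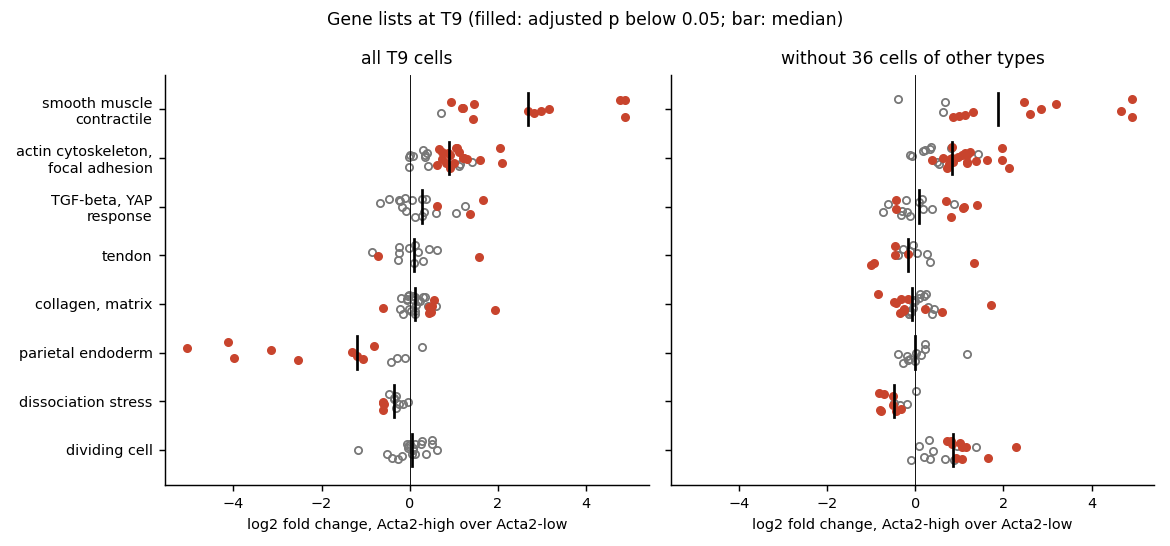
Each point is a tested gene of a list, placed by its log2 fold change of Acta2-high over Acta2-low cells at T9, filled where the adjusted p was below 0.05, with a bar at the list's median. The left panel uses all T9 cells and the right panel leaves out 36 cells with other lineage transcripts. The parietal endoderm median is -1.19 on the left (13 genes tested) and -0.01 on the right (11). On the left, some contractile genes passed the filter only through the Acta2-high class. The contractile median is 2.69 on the left (13 genes tested) and 1.89 on the right (14). The medians of the panels thus cover different sets of genes.

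Genes that were also lower without those cells include immediate early genes, which dissociation of tissue is known to induce. Of 12 dissociation stress genes tested 4 were lower and none higher (median log2 fold change -0.35). *Fos* had 836, 945 and 1404 CPM in Acta2-low and 603, 660.2 and 783 CPM in Acta2-high cells (log2 fold change -0.58, SE 0.10, adjusted p = 0.00295). *Fosb*, *Junb* and *Nr4a1* had log2 fold changes of -0.60 each and were lower in 3 of 3 plates, though *Fosb* and *Nr4a1* were not called without plate 1 (adjusted p = 0.0697 and 0.296). *Egr1*, also an immediate early gene but counted in the tendon list, was at -0.26 (SE 0.09, adjusted p = 0.143). Without the 36 cells *Egr1* was lower (-0.45, adjusted p = 1.9e-06), as were 8 of the 12 dissociation stress genes. Among genes named after their values were seen, *Lgr5*, a receptor for R-spondins, had 34.5, 30.3 and 91.1 CPM against 16.4, 6.70 and 16.2 CPM (log2 fold change -1.87, SE 0.31, adjusted p = 0.00167), with none of its Acta2-low UMIs in the 28 cells. *Gdf10*, *Mgp* (matrix Gla protein) and *Dlk1*, the last of which marks immature mesenchymal cells, were lower by smaller amounts (-0.87, -0.42 and -0.29). None of the 3 was called without plate 3, and *Mgp* and *Dlk1* were not called without plate 1.

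None of the 20 dividing-cell genes was called in the comparison of all cells (median log2 fold change 0.06). Cells with at least 5 UMIs over the list made up 29.6%, 30.6% and 42.1% of Acta2-high and 28.8%, 20.2% and 31.4% of Acta2-low cells. At 3000 UMIs per cell, with at least 2 UMIs over the list, the shares were 28.8%, 33.9% and 40.5% against 36.8%, 27.4% and 38.0%, with no common direction. Without the 36 cells 10 of 20 were higher and none lower (median 0.85), among them *Ccnb1* (cyclin B1, 2.28) and *Ccna2* (1.66). Among all T9 cells, chondrocyte (3 tested), interferon (11), glycolysis and hypoxia (18), adipocyte (5), endothelial (2), neural (1), and mesenchymal progenitor genes (7) had none called. There *Sox9*, a chondrogenic transcription factor, was at 0.31 (SE 0.20), and the progenitor genes *Hmga2* and *Sox11* were at 0.04 and 0.03. Without the 36 cells 1 interferon, 2 glycolysis and 1 adipocyte gene were higher. Lower there were 1 glycolysis, 1 endothelial and 1 neural gene. In the T6 plates 3 of 11 interferon genes and 1 of 2 neural genes were higher. Lower at T6 were 5 of 18 glycolysis genes and 1 of 3 endothelial genes.

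The 3 T6 plates, which had no part in choosing the T9 cells, were classed by *Acta2* in the same way. There 204 of 9868 genes were higher in Acta2-high cells (2.07%) and 156 lower (1.58%), though leaving out T6 plate 3 gave 43 and 28. Of the 171 genes higher at T9, 111 were also higher at T6 (64.9% of the T9 list and 54.4% of the T6 list), and 161 of the 165 tested at T6 had the same sign. Of the 97 lower genes 55 were lower at T6 (56.7% and 35.3%), and 82 of 83 tested had the same sign. Cells with other lineage transcripts were present at T6 too. The Acta2-low classes of T6 plates 1, 2 and 3 held 8, 1 and 7 of them, and the other T6 classes 0. Without such cells 259 of 9579 genes were higher at T6 and 202 lower. How far the agreement of lower genes rests on these cells was not tested. At T6 *Tagln* had a log2 fold change of 3.65, *Myl9* 2.59, *Cnn1* 3.73, *Actg2* 5.33, *Cnn2* 1.91 and *Actb* 0.92, and 10 of 12 contractile and 17 of 30 actin cytoskeleton genes were higher. *Tnmd* was called at T6 (1.02, adjusted p = 0.0103), as was *Thbs4* (0.68, adjusted p = 0.0329), a thrombospondin of tendon, while *Scx* was not (0.20).

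No gene of 10448 passed the test of whether the class difference itself differed between T9 and T6 (0% called), by edgeR's quasi-likelihood test, with 503 at an unadjusted p below 0.05 and none called by DESeq2. Among the named genes the differences of T9 minus T6 were 1.30 for *Fhl1* (SE 0.37, adjusted p = 0.666), 0.83 for *Tnc* (SE 0.16, adjusted p = 0.233) and -0.39 for *Tnmd* (SE 0.28, adjusted p = 0.989). *Tnmd*, called at T6 and not at T9, is thus not shown to differ between them.

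**Figure D5:**
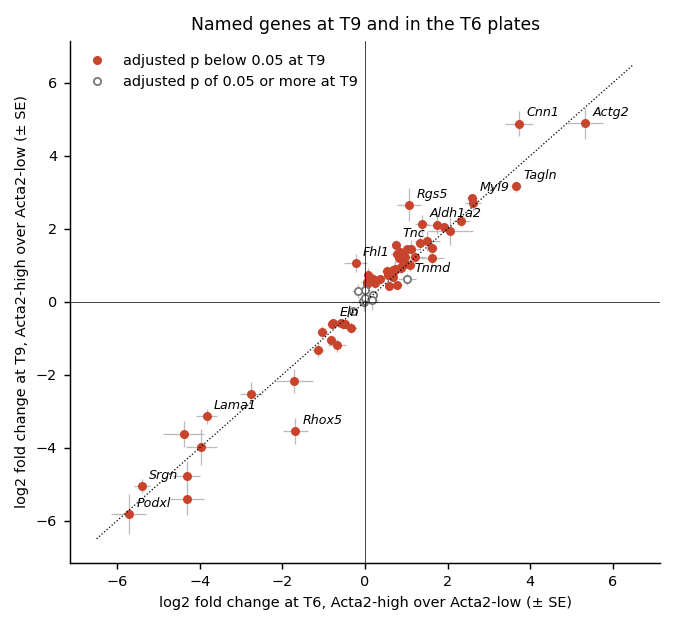
Each point is a gene named under the rule, with its log2 fold change of Acta2-high over Acta2-low cells in the T6 plates on the horizontal and at T9 on the vertical axis, bars giving the standard errors and the dotted line equal values. *Tagln* (3.65 at T6 and 3.16 at T9) and *Srgn* (-5.41 and -5.05) lie near the line, and *Fhl1* (-0.22 and 1.07) lies off it.

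Part of the higher genes followed the order of the classes. Of the 171 higher genes 97 (56.7%) had the middle class between the others in all 3 plates, against 6.25% of all genes tested, a share that the choice of genes by high against low favours. When each plate was cut into 10 equal steps of *Acta2*, *Tagln* went from 66.3, 93.7 and 121 CPM in the lowest step of plates 1, 2 and 3 to 1487, 1704 and 1733 CPM in the highest, and *Myl9* from 84.4, 65.2 and 60.3 CPM to 845, 757 and 893 CPM. *Cnn1* was at 0 in the lowest step of each plate and at 123, 118 and 170 CPM in the highest. Across cells thinned to equal depth, Spearman's rho with *Acta2* within a plate was 0.46 to 0.57 for *Tagln*, 0.37 to 0.44 for *Actb*, -0.06 to 0.04 for *Col1a1*, -0.03 to 0.10 for *Scx*, and -0.18 to -0.16 for *Eln*, over 375, 373 and 363 cells that share a plate's library. These are descriptions across cells of a plate.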

How the data were processed

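Per the labels and the study's methods, single cells were sorted into 384-well plates, and the authors made a table of UMI counts per gene and well by a modified CEL-Seq2 protocol, which reads 3′ ends, with reads aligned to GRCm38 by HISAT2 2.2.1, counted by featureCounts, and collapsed by UMI-tools 1.0.1. The annotation release and strand setting are not given in the sources used here. The deposited counts are neither normalized nor filtered. Of 29632 entries, 29538 were named through GENCODE M21, and entries outside Ensembl held 0.0642% of UMIs. Every column belonged to a labelled sample. The bulk tendon libraries were not used here.

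Counts were summed per plate and class with *Acta2* left out, genes were filtered with filterByExpr, and TMM scaling and the quasi-likelihood test of edgeR 4.0.16 (R 4.3.3) were run with the plate as a block. The filter works by class, so a gene scarce in a class can pass through the other. T6 plates were treated alike, and the difference between T9 and T6 was tested as an interaction over 12 sums. Acta2-high and Acta2-low cells come from the same plates, and the deviations of the classes from their means correlated within plates 1, 2 and 3 (0.32, 0.31 and 0.58 at T9, and 0.30, 0.60 and 0.47 at T6). Alternatives were DESeq2 1.42.0, DESeq2's size factors, no filter, no block, each plate left out, other cuts of the *Acta2* range, a minimum of 5000 UMIs, cells thinned to 3000 UMIs, no dividing cells, classes made without matrix UMIs, and limma 3.58.1 on cells weighted equally. Scripts were tested on counts simulated for the T9 comparison, with 50 genes changed at each of several folds. The test called 5 of 50 at 1.5-fold, 23 at 2-fold, 44 at 3-fold and 40 at 4-fold, with 8 false calls. A gene that was not called may therefore still differ between the classes. Sums, CPM, per-cell shares and rank correlations came from Python 3.11.15 scripts (pandas 2.3.3, scipy 1.17.1).

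Named genes were the called members of the lists, 10 genes the study discusses, and the 10 largest changes in each direction among called genes that changed alike in 3 plates with a mean of at least 20 CPM. Genes outside this rule, including list members that did not pass the test, were named after their values were seen. Members and lists were chosen with earlier results of these data known. Doublets were not called, since wells were sorted singly. Intervals and floors cover counting error only.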

Additional observations from a re-analysis of the deposited data

How the results depend on the processing

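Without the plate as a replicate block, the classes are no longer paired within plates, and 15 genes were higher and 18 lower at T9 (of 171 and 97 with it), and 9 and 18 at T6 (of 204 and 156), with 23 of the 71 called named genes still called. DESeq2 gave 93 and 50 at T9 and 96 and 62 at T6. Thinning every cell to 3000 UMIs gave 91 and 47 at T9 and 119 and 77 at T6, with fewer genes tested (5100 and 5756), and of the called named genes 40 kept the call at T9, 17 lost it and the others were not tested. Classes were there cut anew from the thinned *Acta2* counts, with ties kept in column order, so cells could change class. Without a filter on low counts 294 and 214 were called at T9, and 291 were lower at T6. Comparing the top and bottom of 4 equal classes gave 102 lower genes at T6, and leaving out dividing cells gave 75 higher and 44 lower there. Leaving out a plate gave 112 to 261 higher and 70 to 263 lower genes at T9, and 43 to 284 and 28 to 269 at T6. The test between T9 and T6 called 1 gene with plates cut at their median, 12 without the filter, 3 without dividing cells, and 0 to 6 with a plate left out. The next alternatives were added after seeing the data. Leaving out cells with other lineage transcripts gave 271 higher and 169 lower genes at T9, and adding the middle class to the fit gave 166 lower genes. The cause of these shifts was not tested. DESeq2's size factors changed no call of the 71 named genes. Leaving out the other lineage cells turned the log2 fold change of *Srgn* to 0.22, *Lama1* to 1.17, *Lamb1* to 0.21 and *Col4a1* to 0.12, and of the uncalled *Scx* to -0.044, *Col1a2* to -0.16, *Hmga2* to -0.16 and *Sox11* to -0.15. Leaving out dividing cells turned *Fbn1* to -0.047, *Col1a2* to -0.15, *Hmga2* to -0.11 and *Sox11* to -0.26. Thinning turned *Hmga2* to -0.32, *Sox11* to -0.070 and *Col1a2* to -0.064. With cells weighted equally *Sox11* was at -0.040 and *Col1a2* at -0.052. *Hmga2* was at -0.080 with 4 equal classes and -0.42 to 0.36 with a plate left out, *Sox11* at -0.020 with a minimum of 5000 UMIs, -0.00341 without the block and -0.15 to 0.19 with a plate left out, and *Mkx* at 0.13 with plates cut at their median, 0.022 without the filter, 0.000416 without the block, and -0.17 to 0.10 with a plate left out. Fold changes of genes with few UMIs in a class are limited by depth.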

Other observations

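The fibroblast list, which had 1 higher gene and none lower among all cells, had 2 higher and 4 lower of its members when the 36 cells with other lineage transcripts were left out. *Thy1*, a surface protein of mesenchymal cells, had a log2 fold change of 1.14 (SE 0.32) and *Igf1* of 0.60 (SE 0.09). *Adh1*, an alcohol dehydrogenase that oxidises retinol, stood at -1.03 (SE 0.15), the angiotensin receptor gene *Agtr2* at -0.69 (SE 0.18), the PDGF receptor gene *Pdgfra* at -0.60 (SE 0.16), and *Dcn* at -0.47 (SE 0.06), all by edgeR's quasi-likelihood test at an adjusted p below 0.05. These genes were named after their values were seen, and the alternative itself was added after seeing the data.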
